A study of Mus musculus with 6 samples.

Results

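The Ly6 genes on chromosome 15 were examined as a set of 6 genes, Ly6a, Ly6c1, Ly6c2, Ly6e, Ly6g and Ly6i, out of the 21780 genes in the count table. They were taken by symbol, with Ensembl identifiers translated by the GENCODE vM21 annotation, and all 6 were listed and had enough counts to be tested. RNA came from CD45+CD11b+ cells, the myeloid fraction, sorted by flow cytometry from the pancreas of wild-type C57BL/6 mice. The mice, young adults of both sexes, had been injected intraperitoneally with PBS (3 libraries) or with whole glucan particles (WGP, particulate β-glucan from yeast; 3 libraries), and the pancreas was taken 7 days later. Each library came from a separate animal of one experiment, as the study's text states for its samples, and the sex behind each library is not given in the sources used here. WGP is used to induce trained immunity, a lasting change in the response of innate cells, and the comparison asks how the myeloid cells of the pancreas differ after it.

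Ly6 proteins are small, disulfide-bonded proteins of the Ly6/uPAR fold that a glycosylphosphatidylinositol (GPI) anchor holds on the outer face of the plasma membrane. Several of them define leukocyte populations in the mouse: Ly6C, the product of Ly6c1 and Ly6c2, marks inflammatory monocytes, Ly6G marks neutrophils, and Ly6A is the stem cell antigen Sca-1, which is induced by interferons. Ly6e encodes a broadly expressed, interferon-inducible protein that affects the entry of several viruses, and Ly6i encodes a related protein found on myeloid cells.

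The 6 genes lie within 204.1 kb of chromosome 15 (GRCm38, 74955051 to 75159126), with no other listed gene between them. Ly6e (74955051 to 74959905) and Ly6g (75155240 to 75159126) lie at the ends on the forward strand. Ly6i (74979534 to 74983430), Ly6a (74994877 to 74998031), Ly6c1 (75044018 to 75048830) and Ly6c2 (75108158 to 75111970) lie between them on the reverse strand. Since reads can be shared between near-identical copies, the coding sequences were compared. Ly6c1 and Ly6c2 were the closest pair, with 387 of 396 coding bases identical (97.7%). Ly6a and Ly6i followed at 86.4%, and Ly6e differed most, at 55.5% to 59.6% identity with the other 5 genes.

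Of all windows of 75 bases in a gene's annotated transcripts, 19.0% in Ly6c1 and 9.46% in Ly6c2 also occurred in another gene, in Ly6c2 always in Ly6c1. The share was 6.33% in Ly6a, 0.519% in Ly6i and 0% in Ly6e and Ly6g. The counts of Ly6c1, Ly6c2 and Ly6a therefore carry an uncertainty that those of Ly6e, Ly6g and, nearly so, Ly6i do not. How reads that match several genes were counted is not given in the sources used here. A stretch of coding sequence in which Ly6c1 and Ly6c2 cannot be told apart and the stretch with their most differences are shown, as this decides which reads could be assigned to one of them. Coding bases are counted from 1 at the start codon of each gene's first-numbered transcript with a complete coding sequence, and capitals mark the 6 bases that differ between the copies.
Ly6c1 and Ly6c2, coding bases 66 to 140: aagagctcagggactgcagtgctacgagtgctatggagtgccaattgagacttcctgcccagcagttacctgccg
Ly6c1, coding bases 1 to 75: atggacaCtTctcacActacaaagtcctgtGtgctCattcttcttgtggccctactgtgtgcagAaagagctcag
Ly6c2, coding bases 1 to 75: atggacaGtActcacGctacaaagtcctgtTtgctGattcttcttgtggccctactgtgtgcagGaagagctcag

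**Figure D1:**
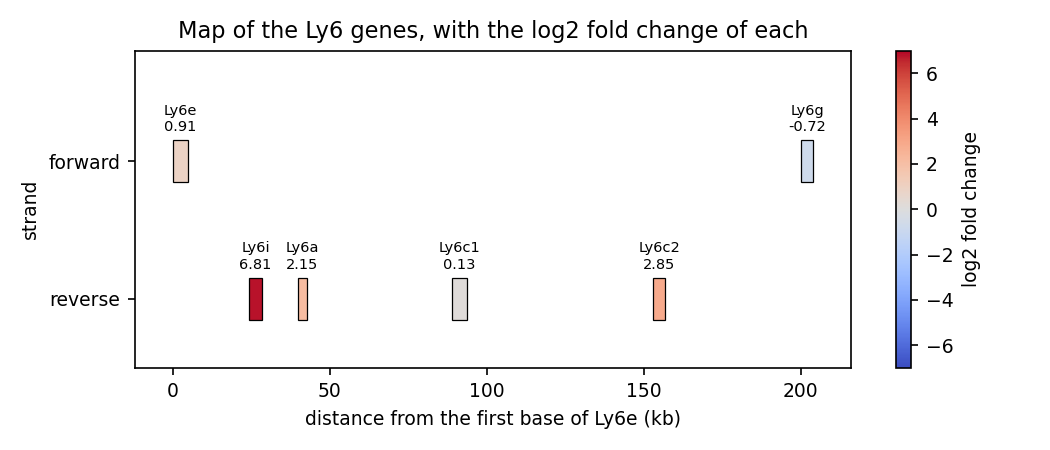
Map of the 6 Ly6 genes. The x axis is the distance in kb from the first base of Ly6e, the rows are the strands, and each box is a gene drawn to scale and coloured by its log2 fold change in WGP over PBS, printed above it. The genes with the larger increases, Ly6i (6.81), Ly6c2 (2.85) and Ly6a (2.15), lie on the reverse strand, on either side of Ly6c1 (0.13).

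Libraries were of like depth, with 35334645 to 43341834 counts and 12147 to 12860 genes with a count. The sort genes were well detected: Ptprc (CD45) stood at 985 ± 50.1 CPM in PBS and 1610 ± 119 CPM in WGP (SD, n = 3), and Itgam (CD11b) at 228 ± 34.3 and 395 ± 20.3 CPM. PBS replicates 2 and 3 held 8972 and 10063 counts of 4 Y-linked genes, PBS replicate 1 and WGP replicates 1 and 2 held 0 and WGP replicate 3 held 1, so that sex and treatment cannot be fully told apart. A covariate for Y-linked counts, used below as an alternative, absorbs PBS replicates 2 and 3. Under it the WGP libraries are set against PBS replicate 1 alone, so its adjusted p and calls rest on that single PBS library. In each library low counts piled up at a value between 18 and 42, called the most frequent low count. Levels are CPM, counts scaled to a common library size by TMM.

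WGP-treated mice had higher Ly6i, Ly6c2 and Ly6a in their pancreatic myeloid cells, by log2 fold changes of 6.81 ± 1.01, 2.85 ± 0.46 and 2.15 ± 0.61 (standard error, n = 3 per group). Ly6e rose by 0.91 ± 0.15, short of the threshold of 1. Ly6c1 and Ly6g were low in both groups and did not pass the test. Genes were called where edgeR's quasi-likelihood test gave an adjusted p (Benjamini-Hochberg) of 0.05 or less and the log2 fold change reached 1 in either direction. By this rule 3 of the 6 genes were called higher and 0 lower. Of all 14429 genes tested, 4.53% were called higher and 4.96% lower. Without the fold change threshold 4 of 6 passed as higher and 0 as lower, against 7.54% and 6.81% of all genes. At an unadjusted p under 0.05 in edgeR the counts were also 4 and 0, against 12.9% and 13.1% of all genes. DESeq2 called 2 higher and 0 lower, against 5.09% and 6.72% of all genes. In 4 of 6 genes every WGP library lay above every PBS library, which held for 16.0% of all genes tested. The median log2 fold change was 1.53 over the 6 genes (2.56 without PBS replicate 1 and 0.87 under a covariate for Y-linked counts) and -0.05 over all genes. In bulk RNA, fewer or more cells of a type and less or more RNA per cell cannot be told apart.

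**Figure D2:**
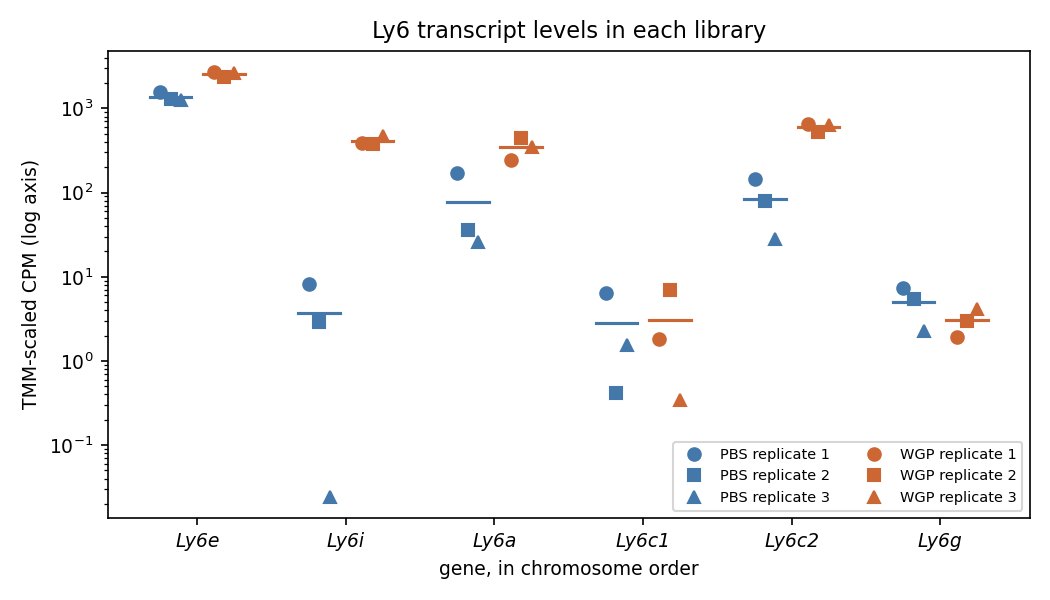
Level of each Ly6 gene in each library, as TMM-scaled CPM on a log axis, with genes in chromosome order. Each point is a library, its shape gives the replicate, and the horizontal line is the group mean. The WGP libraries lie above all PBS libraries for Ly6e, Ly6i, Ly6a and Ly6c2 and overlap them for Ly6c1 and Ly6g.

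Ly6c2, which encodes the Ly6C antigen of inflammatory monocytes, was measured at 144, 80.3 and 28.2 CPM in PBS replicates 1 to 3 and at 658, 519 and 642 CPM in WGP replicates 1 to 3. The WGP libraries lay close together, the PBS libraries spread 5.09-fold, and the lowest WGP library was 3.60-fold above the highest PBS library. The group means were 84.1 ± 57.9 and 606 ± 76.1 CPM (SD, n = 3), a 7.20-fold difference (edgeR, adjusted p = 0.00219). The call held in all 18 alternative analyses, with log2 fold changes from 2.07 to 3.48.

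Ly6c1, the copy that is also known from endothelial cells, was measured at 6.48, 0.411 and 1.54 CPM in PBS and at 1.82, 7.04 and 0.342 CPM in WGP. The groups overlapped, and the highest library was 15.8-fold above the lowest in PBS and 20.6-fold in WGP. The counts behind these values, 14 to 292, were at most 9.13 times the most frequent low count of their library. The difference was 0.13 ± 1.24 on the log2 scale (edgeR, adjusted p = 0.969). Its sign turned with the scaling, being -0.03 when libraries were scaled by totals only, so no direction is given. The 10 endothelial markers had a summed level of 36.9 to 130 CPM in PBS and 43.2 to 79.3 CPM in WGP, with 1 of 10 called higher (Kdr, log2 fold change 2.52 ± 0.52, adjusted p = 0.00839, edgeR) and 0 called lower. Under the covariate for Y-linked counts Kdr was at 2.73 and not called (edgeR, adjusted p = 0.0694).

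The sum of both genes does not depend on how reads were divided between the copies. Ly6c1 and Ly6c2 together rose by 2.81 ± 0.46 on the log2 scale (edgeR, adjusted p = 0.00230), close to Ly6c2 alone. Ly6c1 supplied 4.31%, 0.509% and 5.17% of the summed counts in the PBS libraries and 0.276%, 1.34% and 0.0533% in the WGP libraries. The Wilson 95% interval was 4.06% to 6.56% for PBS replicate 3, with 1219 summed counts, and 0.0317% to 0.0894% for WGP replicate 3, with 26275. It covers counting error at most and takes each count as a separate draw. In these libraries Ly6c1 stood at 2.33 and 0.483 times the most frequent low count, so the intervals may be too narrow. The shares of the groups overlapped, with means of 3.33% ± 2.48 and 0.556% ± 0.688 (SD, n = 3). The difference of WGP minus PBS was -2.77 percentage points, and negative whichever library was left out. The exact two-sided permutation test gave p = 0.2, where 3 against 3 libraries cannot go below 0.1, so the test could not have called a difference.

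Ly6i had the largest change of the 6 genes. Its 3 PBS libraries held 315, 113 and 1 counts, or 8.19, 2.90 and 0.0244 CPM, and its WGP libraries 14447, 15489 and 19488 counts, or 392, 374 and 476 CPM. The lowest WGP library was 45.6-fold above the highest PBS library. The WGP libraries differed by no more than 1.27-fold, while the PBS values rested on 7.50, 3.90 and 0.0370 times the most frequent low count. Group means were 3.71 ± 4.14 and 414 ± 54.7 CPM, a 112-fold difference (edgeR, adjusted p = 0.00132) whose size depends on these low PBS counts. Without PBS replicate 1 the log2 fold change was 8.15, without PBS replicate 2 it was 6.66 and without PBS replicate 3 it was 6.22.

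Ly6a, the gene of Sca-1, was measured at 172, 35.5 and 26.0 CPM in PBS and at 243, 443 and 349 CPM in WGP. PBS replicate 1 stood apart from the other two PBS libraries, and the lowest WGP library was only 1.41-fold above it. Group means were 77.8 ± 81.7 and 345 ± 100 CPM, a 4.43-fold difference that just passed the test (edgeR, adjusted p = 0.0395). Without PBS replicate 1 the log2 fold change was 3.49 and the adjusted p was 3.74e-05 (edgeR). Without any one of the other 5 libraries the adjusted p rose to between 0.0586 and 0.134 (edgeR), and the call was lost. When the fit held a covariate for Y-linked counts, which sets WGP against PBS replicate 1 alone, the log2 fold change was 1.00. The increase in Ly6a was therefore less certain than those in Ly6c2 and Ly6i.

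Ly6i and Ly6a lie side by side and share 86.4% of their coding bases, yet 0.0477, 0.0818 and 0.000938 counts of Ly6i were found per count of Ly6a in the PBS libraries and 1.61, 0.843 and 1.36 in the WGP libraries. The groups did not overlap in this ratio. Its means were 0.0435 ± 0.0406 and 1.27 ± 0.394 (SD, n = 3; exact two-sided permutation test, p = 0.1, the smallest that 3 against 3 libraries allow).

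Ly6e had by far the highest CPM of the 6 genes, with no correction for transcript length, at 1551, 1301 and 1271 CPM in PBS and 2712, 2384 and 2660 CPM in WGP. Both groups were tight, with ranges of 1.22-fold and 1.14-fold, and did not overlap. The means of 1374 ± 154 and 2585 ± 176 CPM differed 1.88-fold (edgeR, adjusted p = 0.00273). The adjusted p stayed at or under 0.0237 in all 18 alternatives (edgeR, limma-voom or DESeq2), and the fold change threshold was passed only without PBS replicate 1, at a log2 fold change of 1.01.

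Ly6g, the neutrophil antigen that many depletion protocols target, was measured at 7.36, 5.42 and 2.25 CPM in PBS and 1.93, 3.01 and 4.15 CPM in WGP. The groups overlapped, and the counts were 3.41 to 7.28 times the most frequent low count. The log2 fold change was -0.72 ± 0.70 (edgeR, adjusted p = 0.553), and no difference was detectable at this depth. Transcripts of other neutrophil genes were present: the 15 neutrophil markers summed to 2530 to 7241 CPM in PBS and 2800 to 3072 CPM in WGP. Of the 15, 1 was called higher and 3 lower, with a median log2 fold change of -0.87 (-0.19 without PBS replicate 1 and -1.58 under the covariate for Y-linked counts). Cxcr2, a chemokine receptor, rose by 1.30 ± 0.22 the granule genes Mmp9 and Mpo changed by -1.41 ± 0.23 and -5.68 ± 1.06, and Csf3r passed the adjusted p alone at 0.81 ± 0.17 (edgeR, adjusted p from 0.00249 to 0.00925). The count of neutrophil markers called lower depended on the analysis, with 1 in limma-voom, 7 without PBS replicate 3 and 11 under the covariate for Y-linked counts, where the call of Cxcr2 was lost (edgeR, adjusted p = 0.0530). The call of Mpo was lost in limma-voom (adjusted p = 0.404), and without PBS replicate 1 its log2 fold change was -3.51.

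**Figure D3:**
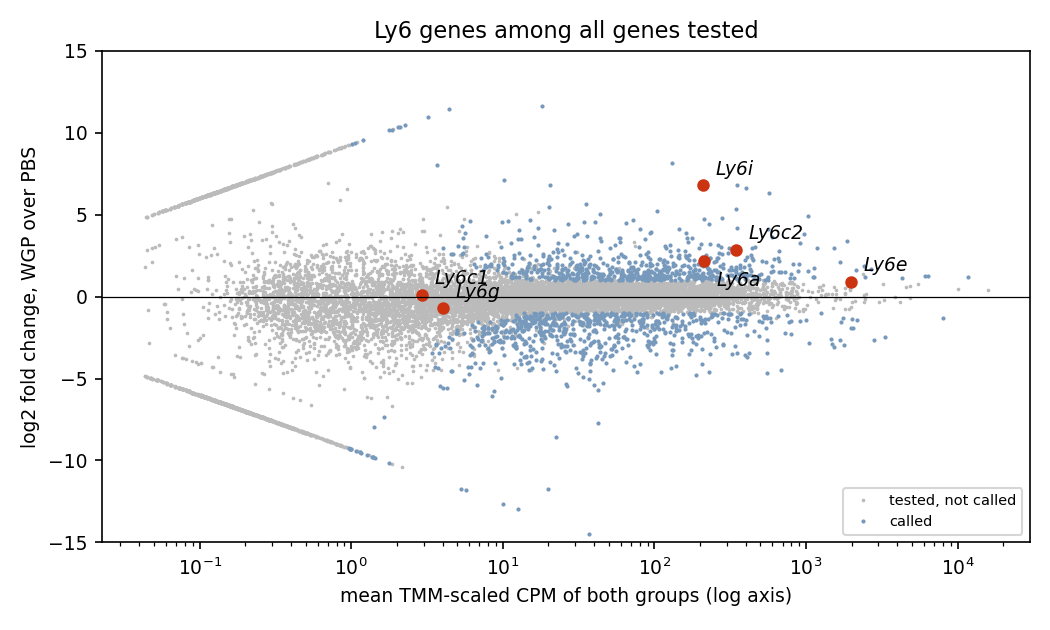
Log2 fold change in WGP over PBS against the mean TMM-scaled CPM of both groups (log axis) for the 14429 genes tested. Grey and blue points are genes not called and called, and red points are the 6 Ly6 genes, of which Ly6e is the most abundant and Ly6i the most changed. The straight grey and blue lines at the left are genes with no count in one group, whose fitted fold changes are no measure of size.

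Levels were compared between the genes only per length, as CPM per kb of protein-coding transcript. In PBS the order was Ly6e (548 ± 61.4), Ly6c2 (96.9 ± 66.7), Ly6a (64.6 ± 67.8), Ly6g (5.32 ± 2.74), Ly6i (3.21 ± 3.58) and Ly6c1 (1.68 ± 1.92). Ly6c2 and Ly6a did not differ beyond their spread, nor did the last 3 genes. In WGP it was Ly6e (1030 ± 70.3), Ly6c2 (698 ± 87.7), Ly6i (358 ± 47.3), Ly6a (286 ± 83.1), Ly6g (3.22 ± 1.18) and Ly6c1 (1.83 ± 2.10), with Ly6i and Ly6a within their spread and Ly6g and Ly6c1 likewise. Ly6i thus stood near Ly6g in PBS and near Ly6a in WGP. Counted over all annotated bases, which are 2740 in place of 868 for Ly6c2, the level of Ly6c2 in WGP was 221 CPM per kb, under those of Ly6i and Ly6a. Ly6e alone supplied 82.1% to 95.6% of all counts of the 6 genes in PBS and 63.9% to 67.7% in WGP. Together the genes took 0.161% ± 0.0386 of a library's counts in PBS and 0.382% ± 0.0232 in WGP (SD, n = 3; exact two-sided permutation test, p = 0.1, the smallest possible).

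Among PBS libraries, replicate 1 had the highest level of all 6 genes. It was also the PBS library without Y-linked counts, and it had the highest summed levels of B cell and plasma cell markers, at 2660 CPM against 711 and 430 CPM, and of neutrophil markers, at 7241 against 3961 and 2530 CPM. Set against this library alone, the lowest WGP library was still 45.6-fold higher for Ly6i, 3.60-fold for Ly6c2, 1.54-fold for Ly6e and 1.41-fold for Ly6a. The Y-linked covariate likewise leaves this library as the only PBS library compared, so it is no separate evidence. With it the log2 fold changes were 5.66 for Ly6i, 2.07 for Ly6c2, 0.74 for Ly6e and 1.00 for Ly6a, each under its value without the covariate.

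**Figure D4:**
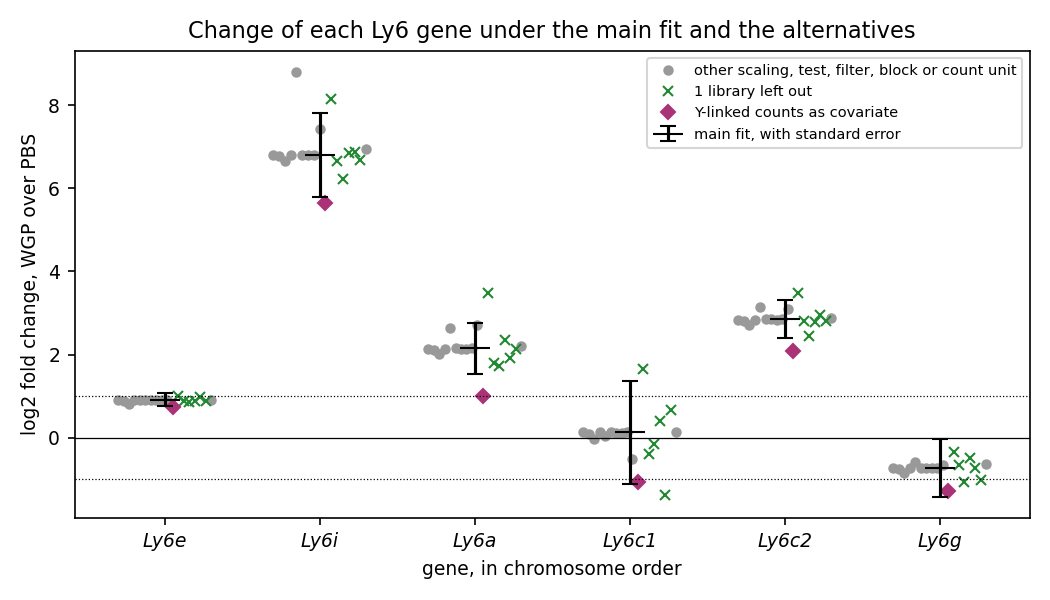
Log2 fold change of each Ly6 gene in WGP over PBS. The black bar and whisker are the main analysis and its standard error, grey points other scalings, tests, filters, the replicate block and the divided counts, green crosses the 6 analyses that leave out 1 library, and the purple diamond the covariate for Y-linked counts; dotted lines mark 1 and -1. Ly6c2 stays between 2.07 and 3.48, Ly6a moves between 1.00 and 3.49, and Ly6c1 lies on both sides of 0.

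Across the 6 libraries, the profiles of Ly6c2, Ly6e and Ly6i ran together on the log2(CPM + 1) scale, with Pearson's r of 0.99 for Ly6c2 and Ly6i, 0.98 for Ly6e and Ly6i and 0.96 for Ly6c2 and Ly6e. Ly6a followed at 0.89 to 0.93 with these genes. Ly6c1 reached no more than 0.40 with any other member, and Ly6g ranged from -0.36 to 0.10. These values describe 6 libraries in 2 groups and largely carry the difference between the groups. Among 8568 genes with a mean of at least 10 CPM, those most like Ly6i were Ddx58, Nlrp1a and Psmb9 (r = 0.997 for each), which encode the RNA sensor RIG-I, an inflammasome sensor and an immunoproteasome subunit. Pcgf5 and Cnnm4 were among those most like Ly6e (r = 0.997 for each). Fis1, Taldo1 and Pik3cd were most like Ly6c2 (r = 0.997 to 1.00), Tomm70a, Kdm5c and Cct4 most like Ly6a (0.990 to 0.999), Sipa1l1, Sf3b4 and Farsb most like Ly6c1 (0.966 to 0.977) and Atm, Flywch1 and Suz12 most like Ly6g (0.964 to 0.973).

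The interferon pathways, which are known to induce Ly6a, Ly6e and other members, were high in the same WGP libraries. Of 20 genes of the interferon-gamma pathway and its targets, 16 were called higher and 0 lower, with a median log2 fold change of 2.35. The calls were 16 to 17 higher and 0 lower whichever library was left out. Their summed level was 2112 to 2659 CPM in PBS and 9957 to 16425 CPM in WGP. The guanylate-binding proteins Gbp2 and Gbp5 rose by 4.93 ± 0.35 and 5.37 ± 0.42 and the chemokine Cxcl9 by 6.31 ± 0.49 on the log2 scale. Of 21 tested genes of the type I interferon pathway, 11 were called higher and 0 lower, with a median of 1.25. Irf7 rose by 1.96 ± 0.15, Oasl2 by 1.79 ± 0.15, Oas3 by 2.11 ± 0.20 and Stat2 by 1.29 ± 0.14. The part of these pathways in the change of the Ly6 genes was not tested.

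Of 28 tested genes for enzymes that build and attach the GPI anchor of Ly6 proteins, 2 were called higher and 0 lower, with a median log2 fold change of 0.11 (0.18 without PBS replicate 3 and 0.24 under the covariate for Y-linked counts). The share called higher was near that of all genes tested (4.53%). These were Pgap2 (1.23 ± 0.17) and Pgap1 (1.09 ± 0.26), which remodel the anchor after attachment. The call of Pgap1 was lost without WGP replicate 2 or WGP replicate 3 and under the covariate for Y-linked counts (edgeR, adjusted p = 0.0537, 0.0838 and 0.0740). Gpaa1, of the transamidase, and Pigp, of the first step, were at 0.68 ± 0.23 and -1.95 ± 0.69 and did not pass (edgeR, adjusted p = 0.0861 and 0.0967). Gpaa1 was called higher under the covariate for Y-linked counts (1.15, edgeR, adjusted p = 0.0273), and Pigp was called lower by DESeq2 (-1.96, adjusted p = 0.0401).

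Other genes of the Ly6/uPAR family were mostly low, and edgeR called none higher. Of 16 listed for chromosome 15, 13 were in the table and 5 had enough counts to be tested, with 0 called higher and 1 lower. Their median was -1.82, but 0.55 without PBS replicate 1 and -3.41 without WGP replicate 2, so it gives no direction for the group. The gene called was Ly6d, known from B lineage cells, at 250, 51.1 and 29.6 CPM in PBS and 11.2, 17.5 and 9.43 CPM in WGP. The groups did not overlap, and PBS replicate 1 was far above the other libraries. The log2 fold change was -3.11 ± 0.68 (edgeR, adjusted p = 0.0120). Without PBS replicate 1 it was -1.66 and still called. The call was lost without WGP replicate 1 or WGP replicate 3 (edgeR, adjusted p = 0.0554 and 0.0573) and in limma-voom (adjusted p = 0.0986). The B cell and plasma cell markers were lower in all 7 tested genes, with 6 called, and went from a summed 430 to 2660 CPM to 102 to 234 CPM. Their part in the fall of Ly6d was not tested. Lynx1, a modulator of acetylcholine receptors, was at 11.4 ± 7.67 and 10.2 ± 1.21 CPM. Ly6k was at 1.18 ± 0.539 CPM in PBS and had no count in WGP, and it was called lower by DESeq2 (adjusted p = 0.00252) and limma-voom (adjusted p = 0.0243) but not by edgeR (adjusted p = 0.109). Gpihbp1 was at 0.886 ± 1.27 and 0.249 ± 0.432 CPM, and Slurp1 had no count in PBS and 0.293 ± 0.508 CPM in WGP. Of 8 tested family members on other chromosomes edgeR called 0 in either direction, with 0 higher and 2 lower at an unadjusted p under 0.05. DESeq2 called 0 higher and 2 lower, and limma-voom 0 and 1. Of these 8 genes, 5 had no count in one group, and the median was -2.81 with those genes at the bound that 3 counts over the empty group allow. It was -1.39 in limma-voom and rests on genes near the floor, so it gives no direction. Only Plaur was well detected, at 191 ± 39.9 CPM in PBS and 181 ± 51.9 CPM in WGP (log2 fold change -0.08 ± 0.23).

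Cell type markers moved with the treatment as well. Of 10 markers of Ly6C-high monocytes, 5 were called higher and 1 lower, with a median log2 fold change of 1.61. Ms4a4c rose by 2.77 ± 0.15, Vcan by 3.89 ± 0.30 and Ccr2, the chemokine receptor of these cells, by 1.98 ± 0.24, while F13a1 fell by 2.57 ± 0.32. The summed level of these 10 genes was 3211 to 6566 CPM in PBS and 6669 to 8352 CPM in WGP, and within PBS it was lowest in replicate 1, the library with the highest Ly6c2. Markers of Ly6C-low monocytes gave 3 called higher and 3 lower of 10 (median -0.54, or -0.33 without WGP replicate 2; 1 lower without PBS replicate 2, WGP replicate 2 or WGP replicate 3), among them Ace at -1.93 ± 0.18 and Adgre4 at 1.59 ± 0.27. Of 11 resident macrophage markers 8 were called lower, with a median of -1.56 (5 and -0.89 under the covariate for Y-linked counts), among them Cd163 at -4.50 ± 0.47 and Timd4 at -3.55 ± 0.37, and their sum was 9820 to 20327 CPM in PBS and 4082 to 6259 CPM in WGP. Among 8 myeloid and sort genes 1 was called higher, Lyz2, at 1.21 ± 0.21 (median of the 8, 0.52). Of acinar markers 9 of 10 were called lower (median -2.69), with sums of 1428 to 5352 CPM in PBS and 373 to 636 CPM in WGP.

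For lists of less abundant cells the counts can be read against the 4.53% of all genes called higher and 4.96% called lower. Of NK cell markers 1 of 8 was called lower and 0 higher (median -1.39), of plasmacytoid dendritic cell markers 2 of 7 lower (median -1.63), of conventional dendritic cell markers 1 of 8 lower (median -0.43), and of eosinophil markers 1 of 7 lower (median -2.01). Markers of type 2 innate lymphoid cells gave 1 called higher and 2 lower of 7 (median -0.03), and T cell markers 1 higher of 9 (median 1.36). Several of these medians rested on 1 library. Without PBS replicate 1 the median was -0.74 over NK cell, 0.17 over conventional dendritic cell and -0.71 over eosinophil markers, and without WGP replicate 2 it was -0.79 over T cell markers. Over the innate lymphoid markers it lay between -0.33 and -0.60 when any 1 library was left out and was 1.40 in limma-voom. The single calls among NK cell, eosinophil and T cell markers were each lost in several of the analyses that leave out 1 library. The median was -0.84 over the endothelial markers and -2.78 over the B cell and plasma cell markers, and -0.30 and -1.63 without PBS replicate 1. Over the endothelial markers it was also -0.37 without WGP replicate 1 and -1.38 without WGP replicate 2. The 10 fibroblast and mesothelial markers had 0 calls in either direction by edgeR, DESeq2 or limma-voom (median 1.92), and 2 were higher at an unadjusted p under 0.05 in edgeR. They had a summed level of 1869 CPM in WGP replicate 2 and 37.7 to 186 CPM elsewhere. Without this library 3 of the 10 were called lower and 0 higher, with a median of -1.74 (2.98 without PBS replicate 1), and without WGP replicate 1 or WGP replicate 3, 1 was called higher. Ly6c1 was also highest in WGP replicate 2. The 4 Y-linked genes were all called lower in WGP. The part of these cells in the levels of the Ly6 genes was not tested.

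Promoters from RefSeq (GRCm38.p6) were at hand for 3 of the 6 genes, Ly6c1, Ly6c2 and Ly6g, each with 2 annotated starts. They are shown because Ly6c2 rose whereas Ly6c1 and Ly6g stayed low and did not pass, although the aligned bases of the 3 promoters were 78.2% (Ly6c1 and Ly6c2), 81.8% (Ly6c1 and Ly6g) and 85.1% (Ly6c2 and Ly6g) identical. Each window runs from 250 bases before to 50 bases after the start, 5′ to 3′ on the strand of the gene. Capitals mark 2 motifs searched on both strands, GAGGAAGT, a core bound by the myeloid factor PU.1, and TATAAA, the letters of the TATA box, which do not overlap each other.
Ly6c1, chr15:75048788-75049087, reverse strand: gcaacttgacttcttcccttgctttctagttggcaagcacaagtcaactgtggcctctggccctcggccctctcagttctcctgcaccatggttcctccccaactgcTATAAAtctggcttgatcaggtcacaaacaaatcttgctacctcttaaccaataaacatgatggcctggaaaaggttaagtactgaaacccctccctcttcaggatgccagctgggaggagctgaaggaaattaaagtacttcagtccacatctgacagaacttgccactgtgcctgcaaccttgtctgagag
Ly6c2, chr15:75111922-75112221, reverse strand: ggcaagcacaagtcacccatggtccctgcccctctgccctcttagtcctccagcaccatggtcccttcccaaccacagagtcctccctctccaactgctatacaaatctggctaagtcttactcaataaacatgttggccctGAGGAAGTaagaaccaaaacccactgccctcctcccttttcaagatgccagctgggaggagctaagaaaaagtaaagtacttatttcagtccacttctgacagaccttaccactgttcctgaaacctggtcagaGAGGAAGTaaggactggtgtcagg
Ly6g, chr15:75155079-75155378, forward strand: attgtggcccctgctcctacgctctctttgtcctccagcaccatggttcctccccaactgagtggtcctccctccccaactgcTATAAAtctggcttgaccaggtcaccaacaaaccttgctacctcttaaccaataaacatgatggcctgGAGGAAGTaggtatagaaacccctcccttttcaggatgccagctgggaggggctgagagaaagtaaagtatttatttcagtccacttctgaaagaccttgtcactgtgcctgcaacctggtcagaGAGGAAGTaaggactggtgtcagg
GAGGAAGT was found in 2 places in the windows of Ly6c2 and Ly6g shown and in the other window of Ly6c1, and 3.20% of 32851 promoters of the same length held it. The match of Ly6c1 starts in the last bases of the window shown, gag, and is cut by its edge. It is followed by aaggactggtg, as is the second match of Ly6c2 and of Ly6g. The window shown therefore does not mean that Ly6c1 lacks this match. TATAAA was found in the windows of Ly6c1 and Ly6g shown and in neither window of Ly6c2, and 13.6% of promoters held it. In the windows shown it lay at offsets of -143 (Ly6c1) and -167 (Ly6g) bases from the annotated start, and whether it acts as a TATA box was not tested. TTCNNNGAA, the interferon-gamma activated site, and the core of the interferon-stimulated response element, GAAA repeated after a gap of 2 bases, were in none of the 6 windows and in 8.30% and 3.44% of all promoters. Letters that match are a description and not evidence of binding.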

How the data were processed

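Poly-A RNA of CD45+CD11b+ pancreatic cells was measured in 6 libraries (3 PBS, 3 WGP). The authors aligned single-end reads to mm10 (GRCm38.p6) by STAR 2.6, obtained counts for each Ensembl gene from HTSeq 0.10.0 and deposited raw counts without normalization. Annotation release, strand setting and handling of duplicates and of reads that map to several genes are not given in the sources used here. The submitters' notes also name DESeq2.

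Protein-coding genes whose RLE-scaled counts summed to 10 or more over the libraries (14429) were tested in R 4.3.3 with edgeR 4.0.16 (quasi-likelihood, TMM, Benjamini-Hochberg adjusted p over all genes; limma 3.58.1 and DESeq2 1.42.0 as alternatives). Standard errors were derived from the F statistic, as the fold change on the log2 scale over the root of F. The procedure was tested on simulated data. Replicate numbers did not pair the libraries (correlations of deviations 0.05, -0.08 and 0.07). Levels are CPM after TMM, and libraries held 35334645 to 43341834 counts.

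The members and gene lists were chosen with earlier results of these data known. Named were all members, up to 4 genes of a list by smallest p, every tested Ly6/uPAR gene of chromosome 15, and for each member the 3 genes of highest Pearson's r on log2(CPM + 1) with a mean of at least 10 CPM. The sort genes were named as a check, and Plaur for its level. For some lists fewer than 4 genes are given, and some values are not reported here. The most frequent low count of a library is the value between 10 and 100 that most genes hold, after smoothing over 7 values. Alternatives were other scalings, tests and filters, a replicate block, a covariate for Y-linked counts, each library left out and, chosen after seeing the data, counts divided by the most frequent low count and repeats of the list counts with the other tests, the covariate and each library left out.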

Additional observations from a re-analysis of the deposited data

How the results depend on the processing

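Ly6c2, Ly6i and the sum of Ly6c1 and Ly6c2 kept their direction and their call under every alternative that tested them. Ly6i was not tested where 10 counts were required in every library. Over the analyses that leave out 1 library the log2 fold change ran from 1.74 to 3.49 for Ly6a, from -1.37 to 1.65 for Ly6c1, from 2.44 to 3.48 for Ly6c2, from 0.86 to 1.01 for Ly6e, from -1.07 to -0.34 for Ly6g, from 6.22 to 8.15 for Ly6i and from 2.40 to 3.46 for the sum. In the same leave-one-out analyses the number of members called ran from 2 to 4, and of all genes from 1146 (without PBS replicate 2) to 1396. DESeq2 on all libraries called 1705 genes. Ly6a lost its call with library totals only (2.00), DESeq2 (2.14), filterByExpr (2.15) and the covariate for Y-linked counts (1.00), with adjusted p from 0.0581 to 0.0800 (edgeR or DESeq2), and in 5 of the 6 leave-one-out analyses. Its adjusted p ran from 3.74e-05 to 0.134 over all 18 alternatives (edgeR, limma-voom or DESeq2). The cause was not tested. Ly6c1 turned negative with library totals only (-0.030), the replicate block (-0.52) and the covariate (-1.08), and on leaving out PBS replicate 2 (-0.39), PBS replicate 3 (-0.16) or the second WGP replicate (-1.37). In no alternative was Ly6c1 or Ly6g called. The Ly6c1 share, lower by 2.77 percentage points in WGP, was lower in its 7 alternatives, by 1.85 (without PBS replicate 3) to 4.18 (without PBS replicate 2) points when 1 library was left out. Without the fold change threshold 2071 genes passed in place of 1369. Scaling by library totals moved the median of all genes from -0.05 to -0.16. The replicate block gave 1341 calls and changed no other call among the members. Depth is not limiting for Ly6e, Ly6c2, Ly6a or, in WGP, Ly6i, whereas Ly6c1 and Ly6g rest on 14 to 292 counts.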
